A study of Homo sapiens with 6 samples.

Results

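Interferon-stimulated genes are the genes that cells switch on when type I or type II interferon binds its receptor. The set described here holds 36 of them, chosen by gene symbol and matched to the Ensembl identifiers of the count files. All 36 were found among the 78932 identifiers, and 32 had enough reads to be tested. RNA was sequenced from KARPAS-45, an established human line of T-lineage leukaemic blasts that carries a KMT2A-FOXO4 fusion, in 2 groups of 3 libraries. The control group is labelled as wild type (WT) and untreated. The MEF2C-OE group had been transduced with a lentivirus carrying MEF2C behind the EF1A promoter with a linked mCherry, and was sorted for mCherry 120 hours later. The labels call it untreated as well, and both groups come from the 1 cell line in the same medium. The labels do not say if a vector or the sorter was used for the control cells, so the effects of MEF2C, of transduction and of sorting cannot be told apart. The replicates are labelled technical, so the p-values cover the spread among these 6 libraries and no spread between cultures.

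Type I interferons bind the IFNAR1-IFNAR2 receptor, whose kinases JAK1 and TYK2 phosphorylate transcription factors such as STAT2. With IRF9 these form a complex that binds the interferon-stimulated response element (ISRE) in promoters. Interferon gamma acts through IFNGR1-IFNGR2 and leads to binding at GAS elements. Cells also start the response themselves when RIG-I-like receptors, cGAS-STING or Toll-like receptors detect foreign or misplaced nucleic acid and activate IRF3 and IRF7. Many of the genes keep a low basal level without added interferon.

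Between 48218497 and 56890745 reads a library were assigned to genes. Levels are in CPM, a gene's count scaled to library size, with edgeR's TMM factors for tested genes and without them for untested ones. MEF2C itself was counted 40, 29 and 41 times in MEF2C-OE and 10, 1 and 0 times in control, so its direction matched the labels. These were low levels, 0.596 to 0.727 CPM in MEF2C-OE and 0 to 0.179 CPM in control. The median tested gene had 9.73 CPM in control. As a check of the line, 8 T-lineage markers summed to 2950 to 2973 CPM in the control and 2449 to 2571 CPM in the MEF2C-OE libraries, with 6 of the 8 lower in MEF2C-OE, where 20.2% of all genes were lower. With the trend of fold change on GC content and transcript length removed, 5 were lower and 2 higher: LCK lost its call, and CD7 (0.18) and CD5 (0.16) passed as higher. Markers of other cells were low. The myeloid list summed to 1.49 to 1.84 CPM in control and 1.2003 to 1.243 CPM in MEF2C-OE libraries with FCGR3A at 0, and the B-cell list to 11.5 to 13.4 and 10.7 to 12.1 CPM, most of it CD79A, with MS4A1 at 0. The plasmacytoid dendritic cell markers CLEC4C, LILRA4 and IL3RA had no reads, although IL3RA is pseudoautosomal and such reads may go uncounted. The fibroblast list summed to 5.34 to 6.16 CPM in control and 1.33 to 1.87 CPM in MEF2C-OE libraries, most of it PDGFRB in the control, with DCN at 0. The part of these markers in the results was not tested. In bulk RNA, fewer cells of a type and less RNA per cell cannot be told apart.

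The promoters are shown first because the ISRE is a known element in the promoters of many of these genes. RefSeq promoters on GRCh38.p14, each of 250 bases before and 50 after a gene's start, were at hand for 27 of the 36 genes. The ISRE core was searched as 2 copies of GAAA with any 2 bases between them or, for the other strand, 2 copies of TTTC spaced the same way. It occurred in at least 1 promoter of 20 of the 27 genes (74.1%), against 1195 of 27305 genes in the whole table (4.38%). The GAS letters TTCNNNGAA occurred in 9 of the 27 (33.3%) against 9.38% of all genes. No ISRE core match was found for ADAR, SAMD9L and XAF1, nor for IRF1, IRF9, IFI35 and OAS1, which had GAS matches. Of the 41 ISRE core matches in these promoters, 7 overlapped a GAS match. Matches were counted in each promoter, so a stretch shared by 2 promoters, as in IFI27 and IFI44, counted 2 times. A match of letters is a description and not a measured binding site. The lines below give such matches in capitals with up to 20 bases on each side, read 5′ to 3′ in the direction of the gene. The bases printed after a match stop at the start site. The matches of EIF2AK2 and DTX3L run across it and that of MX1 lies just after it, and IFI6, IFITM1 and MX1 have further matches that are not printed. The first 4 genes fell in MEF2C-OE cells, the next 7 rose and the last did not pass the test.
ISG15 (chr1:1013364-1013419, plus strand): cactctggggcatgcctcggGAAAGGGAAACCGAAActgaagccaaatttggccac
BST2 (chr19:17405725-17405780, minus strand): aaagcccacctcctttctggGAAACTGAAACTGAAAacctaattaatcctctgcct
IFI6 (chr1:27672278-27672327, minus strand): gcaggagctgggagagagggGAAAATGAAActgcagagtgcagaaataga
IFITM1 (chr11:313980-314029, plus strand): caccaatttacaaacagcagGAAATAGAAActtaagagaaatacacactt
RSAD2 (chr2:6877612-6877661, plus strand): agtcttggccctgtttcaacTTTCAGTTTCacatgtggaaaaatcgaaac
EIF2AK2 (chr2:37156977-37157006, minus strand): gggaaggcggagtccaagggGAAAACGAAA
MX1 (chr21:41420549-41420578, plus strand): ggaaaccagcgagcagaaatGAAACCGAAA
SAMD9 (chr7:93118086-93118135, minus strand): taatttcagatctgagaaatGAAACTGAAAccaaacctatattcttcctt
PARP14 (chr3:122680790-122680838, plus strand): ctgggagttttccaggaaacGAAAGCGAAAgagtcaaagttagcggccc
PARP9 (chr3:122564312-122564361, minus strand): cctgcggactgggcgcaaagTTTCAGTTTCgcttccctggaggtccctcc
DTX3L (chr3:122564312-122564341, plus strand): ggagggacctccagggaagcGAAACTGAAA
IFIT1 (chr10:89392487-89392549, plus strand): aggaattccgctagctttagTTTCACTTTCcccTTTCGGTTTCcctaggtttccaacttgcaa

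In ISG15 and BST2, overlapping core matches run together over the capitals, the first of them 113 and 130 bases before the start. PARP9 and DTX3L are neighbours on opposite strands, and their match is 1 and the same stretch (chromosome 3, 122564332 to 122564341) read from either side. Genes with the core moved in both directions. Of the genes with a promoter in the table, the core was found for 7 of 10 that rose, 4 of 4 that fell and 8 of 11 that did not pass.

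The interferon-stimulated genes did not move one way. Among the 32 genes tested, 12 were higher, 6 were lower and 14 did not pass edgeR's quasi-likelihood test between MEF2C-OE and control (adjusted p under 0.05 over all 19086 genes tested). The 18 called genes are 56.2% of those tested, against 41% of all genes, and all genes split into 20.8% higher and 20.2% lower. The median log2 fold change was 0.06 for the 32 and -0.01 for all genes. The changes were small. The largest rise was 1.66-fold (RSAD2) and the largest fall of a called gene was 1.68-fold (DHX58). Against a fold of 1.2 instead of no change, 6 of the 32 passed: RSAD2 and SAMD9L higher, and DHX58, BST2, IFI6 and ISG15 lower. Of all genes 10.2% passed that test, 4.91% higher and 5.26% lower. For 22 of the 32, 13 higher and 9 lower, no MEF2C-OE library fell inside the control range or beyond it on the other side. The same held for 48.8% of all genes, 24.4% higher and 24.4% lower.

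**Figure D1:**
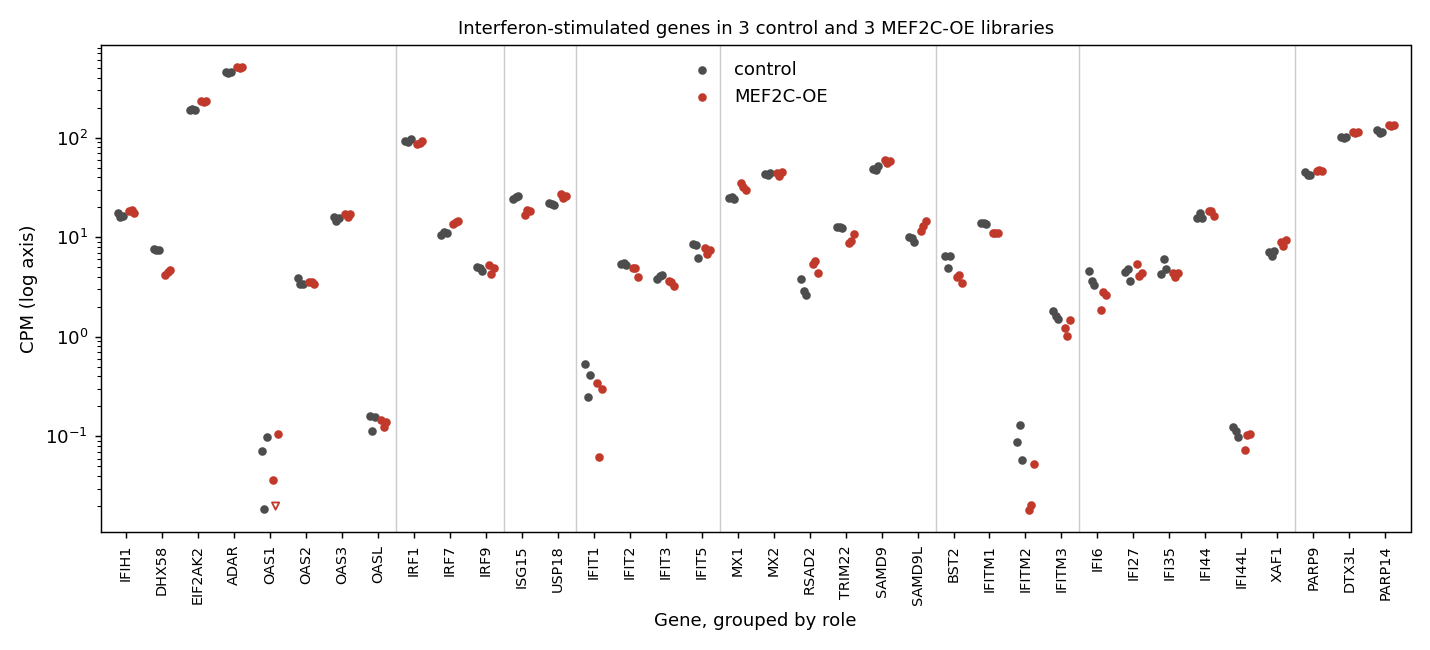
CPM on a log axis of the 36 interferon-stimulated genes, grouped by role between the grey lines, in the 3 control (grey points) and 3 MEF2C-OE libraries (red points, with an open triangle for a library without reads). ADAR is highest at 447 to 514 CPM, and OAS1, OASL, IFI44L and IFITM2 lie at or below 0.1596 CPM in every library.

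Basal levels spanned a wide range. The levels compared between genes are CPM per kilobase of the longest transcript in GENCODE 29. In the control libraries the highest was ADAR with a mean level of 63.5 CPM per kilobase, followed by ISG15 at 32.1, EIF2AK2 at 18.9, IRF1 at 18.1 and DTX3L at 17.2. MX2 had 10.7 and MX1 7.15 CPM per kilobase. At the other end, IFIT1 had 0.0864, OASL 0.0438, OAS1 0.0259 and IFI44L 0.0190 CPM per kilobase. OAS1 (0 to 6 reads a library), OASL (6 to 9), IFI44L (4 to 7) and IFITM2 (1 to 7) were not tested. A count of 0 allows up to 3 reads, or 0.0527 to 0.0622 CPM in these libraries, and that floor covers counting error only.

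Among sensors and double-stranded RNA enzymes, the test called 2 of 6 higher and 1 lower, and 3 did not pass. Of all genes 20.8% were higher and 20.2% lower. EIF2AK2 encodes PKR, which halts translation on binding double-stranded RNA. It had 188, 193 and 188 CPM in the control and 235, 225 and 234 CPM in the MEF2C-OE libraries. These groups were well apart (log2 fold change 0.28, SE 0.025, adjusted p = 1.02e-12). ADAR, the adenosine deaminase that edits double-stranded RNA, had 455, 447 and 453 CPM in the control and 514, 498 and 506 CPM in the MEF2C-OE libraries. All MEF2C-OE values were above all control values, and the log2 fold change was 0.17 (SE 0.0216, adjusted p = 2.5e-08). With the trend of fold change on GC content and transcript length removed, the log2 fold changes were 0.07 for EIF2AK2 and 0.08 for ADAR, still past the threshold (adjusted p = 0.0134 and 0.00155).

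DHX58 went the other way. It encodes LGP2, the RIG-I-like receptor without signalling domains that modulates the other members. Its level was 7.58, 7.52 and 7.40 CPM in the control and 4.16, 4.50 and 4.72 CPM in the MEF2C-OE libraries. The control libraries lay close together and above every MEF2C-OE library (log2 fold change -0.75, SE 0.11, adjusted p = 3.05e-07). IFIH1, which encodes the sensor MDA5, had means of 16.6 and 18.1 CPM and did not pass (log2 fold change 0.12, 95% interval -0.01 to 0.26). The synthetases OAS2 and OAS3, which activate RNase L, had log2 fold changes of -0.04 and 0.12 and did not pass either (adjusted p = 0.874 and 0.164), and the interval of OAS2 ran from -0.32 to 0.25.

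Of the 3 interferon regulatory factors only IRF7 passed the test, as did 41% of all genes. IRF7 amplifies type I interferon production. It had 10.5, 11.3 and 10.9 CPM in the control and 13.4, 14.3 and 14.4 CPM in the MEF2C-OE libraries. The groups did not overlap, and the log2 fold change was 0.36 (SE 0.0784, adjusted p = 0.00018), or 0.57 with the GC and length trend removed. IRF1, an interferon-induced transcription factor, had 93.1, 90.5 and 96.3 CPM in the control and 86.8, 87.5 and 91.8 CPM in the MEF2C-OE libraries, with 1 MEF2C-OE library inside the control range. Its log2 fold change was -0.07 (adjusted p = 0.0795), and it passed as lower in 5 of 15 alternative settings. IRF9, the DNA-binding subunit of the complex that recognises the ISRE, had 5.02, 4.94 and 4.58 CPM in the control and 5.22, 4.26 and 4.92 CPM in the MEF2C-OE libraries. Those values were interleaved, and the 95% interval of its log2 fold change ran from -0.26 to 0.23.

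ISG15 and USP18, a modifier and its protease, moved in opposite directions. ISG15 is a ubiquitin-like protein that is joined to other proteins during the response. It had 24.1, 25.5 and 26.2 CPM in the control and 16.7, 18.7 and 18.4 CPM in the MEF2C-OE libraries. The gap between the groups was wider than the spread within either, and the log2 fold change was -0.49 (SE 0.0634, adjusted p = 1.83e-08), or -0.30 with the GC and length trend removed. USP18 takes ISG15 off its targets and dampens IFNAR2 signalling. Its level was 22.1, 21.4 and 21.2 CPM in the control and 27.3, 24.7 and 26.004 CPM in the MEF2C-OE libraries. It rose by 0.27 on the log2 scale (SE 0.0594, adjusted p = 0.000264), a value that is uncertain because a near-identical copy exists in the genome. UBA7, the activating enzyme for ISG15 conjugation, was outside the 36 and fell by 0.55 on the log2 scale (46.9 ± 1.90 to 32.1 ± 1.79 CPM; SD, n = 3; adjusted p = 1.8e-12, edgeR). UBE2L6 (adjusted p = 0.000454), the conjugating enzyme, had a log2 fold change of -0.15, and its call ended once the GC and length trend was removed (-0.0028, adjusted p = 0.962). HERC5 (adjusted p = 1.1e-09), the ligase, had 0.27. UBE2L6, HERC5 and, in the paragraphs on RSAD2, TRIM22 and sensing, CMPK2, TRIM5, RIGI, CGAS, ZBP1, IRF5 and TREX1 were chosen after their values were seen.

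The IFIT genes, a cluster on chromosome 10 whose proteins include binders of foreign RNA ends, did not pass. By edgeR 0 of 4 passed, against 41% of all genes, and 0 had an unadjusted p under 0.05. In any alternative setting that tested them 0 were called, DESeq2 and limma-voom included (15 settings, and 14 for IFIT1). IFIT1 had 0.536, 0.246 and 0.413 CPM in the control and 0.345, 0.0617 and 0.297 CPM in the MEF2C-OE libraries. These low values overlapped, and the 95% interval of the log2 fold change was wide, from -1.78 to 0.31. IFIT2 and IFIT3 had log2 fold changes of -0.23 and -0.22 with groups that did not overlap, and intervals of -0.47 to 0.02 and -0.50 to 0.05. IFIT5 had -0.06.

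Other cytosolic antiviral genes rose in 4 of 6 cases, 1 fell and 1 did not pass (of all genes, 20.8% rose and 20.2% fell). RSAD2 encodes viperin, a radical SAM enzyme that makes a chain-terminating nucleotide. Its level was 3.79, 2.88 and 2.62 CPM in the control and 5.36, 5.82 and 4.34 CPM in the MEF2C-OE libraries. The lowest MEF2C-OE library was above the highest control library, and the log2 fold change of 0.73 (SE 0.144, adjusted p = 5.03e-05) was the largest rise of the set. CMPK2, which lies head to head with RSAD2 on the other strand and overlaps it, rose as well, by 0.27 (adjusted p = 0.00396). Nothing at hand states the strand setting of the counting, so reads of overlapping genes on opposite strands may not be separated.

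MX1 and MX2 are neighbouring dynamin-like GTPase genes on chromosome 21. MX1 had 24.9, 25.4 and 24.2 CPM in the control and 34.9, 31.9 and 29.9 CPM in the MEF2C-OE libraries. All MEF2C-OE libraries were higher (log2 fold change 0.38, SE 0.0575, adjusted p = 6.25e-07). MX2 had means of 43.3 and 43.6 CPM, a log2 fold change of 0.01 and a 95% interval of -0.08 to 0.10. The intervals of MX1 (0.26 to 0.49) and MX2 do not meet, though the difference between the genes was not tested.

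SAMD9 and SAMD9L, adjacent paralogs on chromosome 7 that restrict poxviruses and slow translation, both rose. SAMD9L had 10.1, 9.74 and 8.87 CPM in the control and 11.7, 13.0 and 14.7 CPM in the MEF2C-OE libraries. The groups were separate (log2 fold change 0.45, SE 0.0880, adjusted p = 4.08e-05), and the log2 fold change was 0.29 with the GC and length trend removed. SAMD9 had 48.5, 46.8 and 51.3 CPM in the control and 59.3, 56.2 and 57.6 CPM in the MEF2C-OE libraries. It rose by 0.24 (SE 0.0418, adjusted p = 6.89e-06), but its call ended once the GC and length trend was removed (0.07, adjusted p = 0.16). TRIM22, a ubiquitin ligase that restricts retroviruses, had 12.7, 12.7 and 12.5 CPM in the control and 8.69, 9.09 and 10.7 CPM in the MEF2C-OE libraries. It fell by 0.41 on the log2 scale (SE 0.0863, adjusted p = 0.000121). TRIM5, the neighbouring restriction factor gene, overlaps TRIM22 on the other strand and also fell, by 0.29 (adjusted p = 2.06e-07).

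Of the 3 tested genes of membrane proteins that block virus entry or release, 2 fell and 1 did not pass (20.2% of all genes fell). BST2, or tetherin, holds budding virions at the cell surface. It had 6.52, 4.93 and 6.51 CPM in the control and 3.999, 4.15 and 3.48 CPM in the MEF2C-OE libraries. Every MEF2C-OE library was below every control library (log2 fold change -0.63, SE 0.129, adjusted p = 8.98e-05). IFITM1 had 13.99, 13.73 and 13.69 CPM in the control and 10.91, 11.04 and 11.04 CPM in the MEF2C-OE libraries. The libraries of each group nearly coincided, and the log2 fold change was -0.33 (SE 0.0773, adjusted p = 0.000548). IFITM3 had means of 1.656 and 1.2505 CPM and did not pass (-0.40, 95% interval -0.85 to 0.05). The IFITM genes are paralogs of similar sequence on chromosome 11. In GENCODE 29 IFITM1 also lies within the span of IFITM2 on the same strand, so the values of the IFITM genes are uncertain singly.

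Among the IFI genes and XAF1, the test called 1 of 5 higher and 1 lower, and 3 did not pass. That is near the shares of all genes, 20.8% higher and 20.2% lower. IFI6, which encodes a small hydrophobic protein that opposes flavivirus replication, had 4.63, 3.66 and 3.33 CPM in the control and 1.87, 2.84 and 2.62 CPM in the MEF2C-OE libraries. The groups were separate although each was spread, and the log2 fold change was -0.67 (SE 0.165, adjusted p = 0.000924). XAF1, a pro-apoptotic antagonist of XIAP, had 7.06, 6.54 and 7.32 CPM in the control and 9.03, 8.10 and 9.31 CPM in the MEF2C-OE libraries. It rose by 0.34 (SE 0.0974, adjusted p = 0.00412). IFI27, IFI35 and IFI44 had log2 fold changes of 0.10, -0.26 and 0.11 and overlapping groups. IFI35 passed as lower when control replicate 1 was left out (-0.36).

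PARP9, DTX3L and PARP14, neighbours on chromosome 3 that encode a ubiquitin ligase complex and ADP-ribosyltransferases, rose together by small amounts. Of all genes 20.8% rose. PARP14 had 120.2, 110.0 and 113 CPM in the control and 132, 132 and 132 CPM in the MEF2C-OE libraries, a log2 fold change of 0.21 (adjusted p = 1.94e-07). DTX3L had 101, 99.1 and 102 CPM in the control and 114, 111 and 114 CPM in the MEF2C-OE libraries, a log2 fold change of 0.17 (adjusted p = 1.04e-05). PARP9 had 45.1, 42.5 and 42.5 CPM in the control and 46.6, 47.7 and 46.5 CPM in the MEF2C-OE libraries, a log2 fold change of 0.11 (adjusted p = 0.0376). In each of the 3 genes the groups were separate. All 3 calls ended with the GC and length trend removed, at 0.05 for PARP14 (adjusted p = 0.174), 0.07 for DTX3L (adjusted p = 0.064) and -0.01 for PARP9 (adjusted p = 0.855). The call of PARP9 was also lost without control replicate 2 or 3 or any 1 MEF2C-OE replicate.

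**Figure D2:**
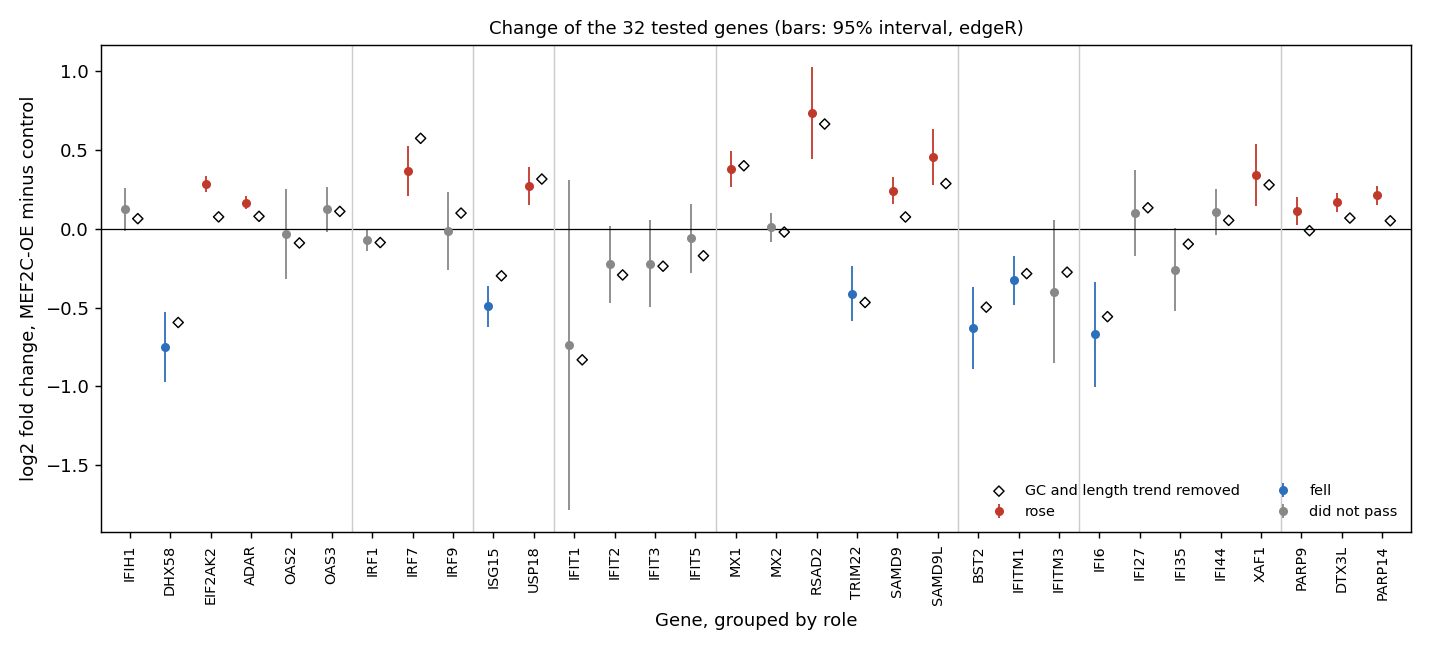
Log2 fold change (MEF2C-OE minus control) of the 32 tested genes with 95% intervals from edgeR, coloured by whether the gene rose, fell or did not pass, and open diamonds for the fold change with the GC and length trend removed. RSAD2 at 0.73 and DHX58 at -0.75 are the extremes of the called genes, and PARP9, DTX3L, PARP14 and SAMD9 shrink to between -0.01 and 0.07.

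The direction of change moved with gene composition. The 12 genes that rose had a median longest transcript of 6318.5 bases and a median GC content of 43.2%, and the 6 that fell had medians of 937 bases and 56.7%. ISG15 (787 bases), IFI6 (841), IFITM1 (855) and BST2 (1019) were all short. The same lean was present over all genes, with medians of 4553 bases and 43.6% GC for those that rose and 2911 bases and 54.4% for those that fell. Across the 32 genes, which share libraries and are not replicates, the Spearman correlation of the log2 fold change was 0.50 with transcript length and -0.38 with GC content. Over the 16946 tested genes with both properties it was 0.18 and -0.29. With the trend removed, 8 of the 32 rose, 7 fell and 17 did not pass, where 38.3% of all genes were called (18% higher, 20.4% lower). Of the 18 earlier calls 14 remained. The share of calls that remained over all genes was not computed. IRF1 was the 1 gene newly called (-0.09, adjusted p = 0.0264). IRF7, at 66.8% GC and 2051 bases, and TRIM22, at 41.8% GC, moved against the lean of all genes on GC content, and kept their calls. DHX58, BST2, IFI6, ISG15, IFITM1, RSAD2, MX1, SAMD9L, USP18, XAF1, EIF2AK2 and ADAR kept theirs too.

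**Figure D3:**
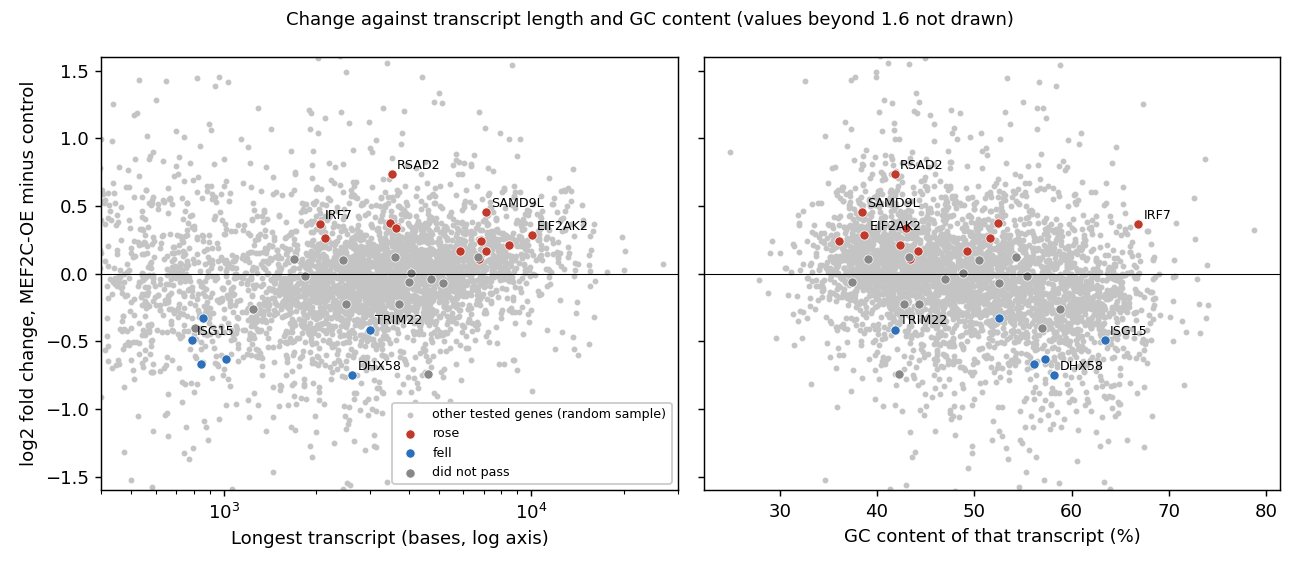
Log2 fold change (MEF2C-OE minus control) of the 32 tested genes against the length of the longest transcript (left, log axis, bases) and its GC content (right, %), over a random sample of other tested genes in light grey. The 4 shortest genes that fell, at 787 to 1019 bases, lie at the left of the length panel, and IRF7 stands alone at 66.8% GC among those that rose.

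Upstream of the set, no interferon gene reached more than trace counts. Of 21 ligand genes, 20 were not tested and IFNB1, the gene of interferon beta, did not pass (0.172 ± 0.0934 CPM in control, 0.125 ± 0.128 CPM in MEF2C-OE; SD, n = 3; adjusted p = 0.632). IFNG, the gene of interferon gamma, had 0 reads in all 6 libraries. Ligand genes were thus not detectable above the floor in these counts, apart from IFNB1. Reads that did not align uniquely (4.03% to 4.68%) were not counted, so reads shared between similar ligand genes would be missed.

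Receptor and signalling genes moved in both directions. Of 16 tested, 4 rose, 5 fell and 7 did not pass (56.2% called, against 41% of all genes, 20.8% higher and 20.2% lower). IFNAR2, the signalling chain of the type I receptor, had 46.4, 46.8 and 46.6 CPM in the control and 40.0, 39.3 and 38.6 CPM in the MEF2C-OE libraries, a log2 fold change of -0.25 (adjusted p = 1.07e-05). Its partner IFNAR1 had 0.13 (adjusted p = 0.000307), a call that ended once the GC and length trend was removed (0.00, adjusted p = 0.963). STAT2, a transcription factor of the type I response, had 66.2, 66.1 and 65.5 CPM in the control and 60.4, 55.0 and 58.3 CPM in the MEF2C-OE libraries. The groups were separate, and it fell by 0.19 on the log2 scale (SE 0.0387, adjusted p = 0.000103). JAK1 rose by 0.20 (adjusted p = 9.82e-10; 0.13 with the GC and length trend removed). TYK2 had -0.10 (adjusted p = 0.00462), which turned to 0.04 with that trend removed. PTPN6, the phosphatase SHP-1 that restrains cytokine receptors, fell by 0.39 (adjusted p = 1.36e-12; by 0.21 with that trend removed). IFNGR1 had -0.15 (adjusted p = 0.0491) and lost its call in 9 of 15 alternative settings, including when control replicate 1, 2 or 3 or MEF2C-OE replicate 2 was left out. IFNGR2 and the feedback inhibitor gene SOCS1 had 0.03 and 0.05 and did not pass.

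Nucleic acid sensing genes passed in 5 of 17 tested cases (29.4%, against 41% of all genes), 2 higher and 3 lower, and 2 were higher and 6 lower with the GC and length trend removed. IRF3, the factor that sensors activate first, had 39.0, 40.6 and 39.3 CPM in the control and 28.6, 27.9 and 30.4 CPM in the MEF2C-OE libraries. Its log2 fold change of -0.45 (SE 0.0505, adjusted p = 7.19e-10) was opposite in sign to that of IRF7, and was -0.29 with the GC and length trend removed. STING1, the adaptor of cytosolic DNA sensing, had 60.4 ± 2.14 CPM in control and 45.8 ± 0.806 CPM in MEF2C-OE (SD, n = 3), a log2 fold change by edgeR of -0.40 (adjusted p = 7.63e-11). The Toll-like receptor adaptor MYD88 fell by 0.21 and TRAF3 rose by 0.17 (adjusted p = 0.00116 and 3.24e-06). RNASEH2B, a subunit of ribonuclease H2, had 0.18, which was 0.01 with that trend removed (adjusted p = 0.739). RIGI, CGAS, ZBP1 and IRF5 lay between 0.0787 and 1.56 CPM in every library and did not pass. With the GC and length trend removed, ZBP1 passed as higher (0.68, adjusted p = 0.0457, edgeR). TREX1 had 0 reads in every library, but GENCODE 29 places it inside ATRIP on the same strand, where reads can go uncounted as ambiguous.

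**Figure D4:**
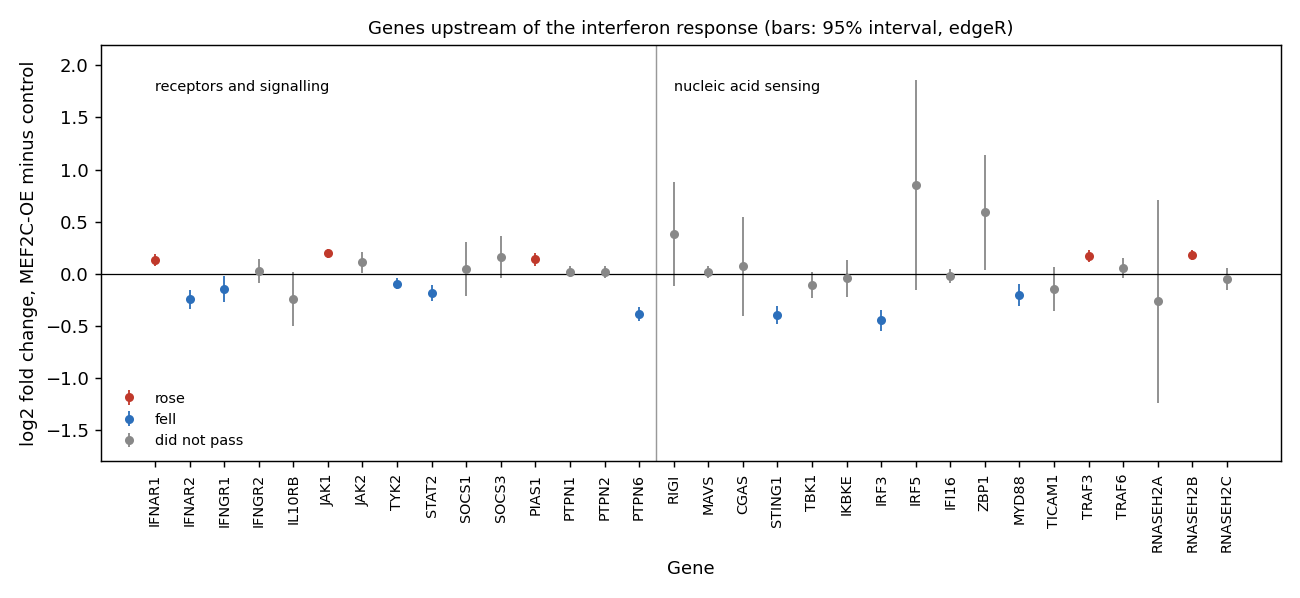
Log2 fold change (MEF2C-OE minus control) with 95% intervals from edgeR for 15 of the 16 tested receptor and signalling genes (left of the line) and 17 nucleic acid sensing genes (right), coloured by whether the gene rose, fell or did not pass. IRF3 at -0.45 and STING1 at -0.40 are the largest called falls drawn and JAK1 at 0.20 the largest called rise drawn.

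A further list of 56 interferon-inducible genes, 47 of them tested, leaned lower. Of these 9 rose, 19 fell and 19 did not pass (59.6% called, against 41% of all genes, 20.8% higher and 20.2% lower). The median log2 fold change was -0.11, against -0.01 for all genes. With the GC and length trend removed, 9 rose, 16 fell and 22 did not pass, where 18% of all genes were higher and 20.4% lower. The death ligand gene TNFSF10 (TRAIL) had 45.8, 44.5 and 43.7 CPM in the control and 18.96, 20.99 and 21.75 CPM in the MEF2C-OE libraries. That log2 fold change of -1.12 (SE 0.0544, adjusted p = 1.26e-20) was larger than any in the set of 36. GBP1, a guanylate-binding GTPase gene induced by interferon gamma, had 2.94 ± 0.769 CPM in control and 1.33 ± 0.0930 CPM in MEF2C-OE (SD, n = 3), a log2 fold change by edgeR of -1.14 (adjusted p = 6.81e-06). In the other direction, WARS1, a tryptophanyl-tRNA synthetase gene that is also controlled by the amino acid response, rose by 0.63, the phospholipid scramblase gene PLSCR1 by 0.53 and the apolipoprotein L gene APOL6 by 0.52, which was 0.32 once the GC and length trend was removed (adjusted p = 2.59e-24, 3.42e-12 and 4.8e-19). Genes of this response outside the 36 thus also moved both ways.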

How the data were processed

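Total RNA of 6 TruSeq libraries was sequenced, per the labels' protocols. The deposited values are counts of reads per gene, not normalized, which the authors made with Trim Galore, STAR and HTSeq on hg38, per the submitters' processing notes. No source at hand gives tool versions, annotation release, strand use or filters. The 5 summary lines of each file were left out: 20.9% to 21.8% of reads lay outside features, 3.31% to 3.46% were ambiguous and 4.03% to 4.68% did not align uniquely.

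The counts were fitted with edgeR 4.0.16 (R 4.3.3): TMM factors, filterByExpr, robust quasi-likelihood test and Benjamini-Hochberg adjustment over 19086 genes. The biological coefficient of variation was 3.67%. GC content and transcript length came from GENCODE 29, which held 88.8% of the tested genes, and their trend was removed as an offset of splines with 5 degrees of freedom. The alternatives were 2 other scalings, 2 other filters, a test against a fold of 1.2, a replicate block, the GC and length offset, DESeq2 1.42.0, limma-voom (limma 3.58.1) and leaving out each library. Tested on simulated data over 19086 genes, the fit called 40 of 50 genes changed 1.25-fold and 48 of 50 changed 1.5-fold. Of 18886 unchanged genes, 12 were called. The changed genes were drawn from those with a mean of at least 50 reads a library, which leaves out low genes such as IFIT1. Every simulated gene had the same biological coefficient of variation and no GC or length trend.

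The genes and lists were chosen with earlier results of these data known. All 36 genes are accounted for. Values per library were given for those called with at least 1 CPM and for ISG15, MX1, IFIT1, IRF1, IRF7 and IRF9. Of each pathway list, up to 6 called genes of largest change were named, besides STAT2, IFNAR1, IFNAR2, IFNGR1, IFNGR2, JAK1, TYK2, SOCS1, IRF3, IFNB1 and IFNG. Lists of NK (1.71 to 2.39 CPM over the libraries), erythroid (0 to 0.0703) and epithelial or producer cell markers (0.782 to 1.67) were also summed. Of the genes that these rules would name, 1 is not reported here.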

Additional observations from a re-analysis of the deposited data

How the results depend on the processing

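Of the 18 calls, 6 (DHX58, ISG15, RSAD2, SAMD9L, BST2 and IFI6) held in all 15 alternatives, and 8 were lost only against a fold of 1.2. That test left 2 of the 36 genes higher, 937 and 1003 of all genes higher and lower, 0 and 1 receptor and signalling genes, 0 sensing genes higher, and 3 and 4 other inducible genes. It asks for a larger change by construction. With the GC and length trend removed, 6 sensing genes were lower, PARP9 turned to -0.013 and TYK2 to 0.043, and the cause was not tested. Leaving out 1 library gave 11 to 12 of the 36 higher and 6 to 7 lower, with a median log2 fold change of -0.014 (without MEF2C-OE replicate 1) to 0.074, and 3545 to 3773 of all genes higher and 3353 to 3652 lower.

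Same-numbered libraries did not deviate together (correlations of 0.0061, 0.0123 and -0.0031 over 19086 genes, low-count genes included). Counting noise also lowers such correlations, so they cannot exclude a pairing, and the labels state none. With the replicate block, 12 of the 36 rose and 6 fell, with 3953 of all genes higher in MEF2C-OE and 3845 of all genes lower in MEF2C-OE. The counts of IFIT1 and of the 4 untested genes were too low to bound a change closely.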

Other observations

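Several near-silent genes lay beside expressed relatives. IFI44L had 4 to 7 reads a library while IFI44, 3651 bases away, had means of 16.4 CPM in control and 17.6 CPM in MEF2C-OE libraries. OAS1 had 0 to 6 reads, and OAS3, 5130 bases away, had means of 15.3 and 16.7 CPM. The reads of the 36 genes together made up 0.130% to 0.132% of the control and 0.145% to 0.148% of the MEF2C-OE libraries, a sum led by ADAR, EIF2AK2, PARP14 and DTX3L.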
